A study of Mus musculus with 24 samples.

Results

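The kinesin motor genes were followed through the growing mouse limb bud. Members are the symbols made of Kif, a number and at most 1 letter (a, b or c), without Kif3a, Kif3b and Kif3c, which encode subunits of the motor of intraflagellar transport. The rule gave 34 of the 38019 symbols in the deposited tables. By their known functions, 12 were classed as mitotic, 12 as transport, 6 as cilium and 4 as other kinesins.

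Kinesins are motors that use ATP to walk along microtubules or, in a few families, to take microtubule ends apart. Mitotic kinesins build the spindle, move chromosomes and finish cytokinesis, and their transcripts accumulate as cells approach division. Transport kinesins carry organelles, vesicles, RNA and protein complexes through the cytoplasm in most cell types and are best known from axons.

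The libraries are total RNA of dissected hindlimb (HL) and forelimb (FL) buds of C57/Bl6 embryos at embryonic stages E11.5 or E10.5. Mutant embryos were U11flx/flx::Prrx1-Cre+ and the embryos called WT were U11flx/flx::Prrx1-Cre-, so both carried floxed alleles of Rnu11, which encodes U11, an RNA component of the minor spliceosome. Prrx1-Cre is active in limb mesenchyme, and a dissected bud also holds ectoderm, vessels, blood and other cells in which the alleles stay intact. Each of the 8 groups (2 stages, 2 limbs, 2 genotypes) had 3 libraries, 24 in all.

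Values are TPM (a share of all transcripts), in which gene length is already divided out, after each library was rescaled so that its median over 3518 well-expressed genes was equal. A change is a difference of mean log2(rescaled TPM + 1) with its standard error, which understates the change of genes at low levels. A call means a Benjamini-Hochberg adjusted p under 0.05 in a two-sided limma test over all genes tested. TPM keeps no depth, so the depth is unknown and the counting error of low values cannot be stated. The labels do not tie libraries to embryos, so the p-values measure library-to-library spread only, which may be technical in part. In whole buds, fewer cells of a type and less RNA per cell cannot be told apart.

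Rnu11 in the mutants was at 25.3% (E11.5 HL), 13.5% (E11.5 FL), 35.9% (E10.5 HL) and 36.7% (E10.5 FL) of its WT mean. The mutant and WT libraries overlapped in E10.5 FL alone, where the mutants spanned 94.2 to 482 and the WT 251 to 1063 rescaled TPM (exact two-sided permutation p = 0.2 there and 0.1 elsewhere, the smallest that 3 against 3 allows). In the limma test used for the kinesins, Rnu11 was called in E11.5 FL alone (adjusted p = 0.000769). It was not called in E11.5 HL (adjusted p = 0.0762), E10.5 FL (adjusted p = 0.892) or E10.5 HL. E10.5 mutant FL replicate 3 went partly against its limb label: the hindlimb gene Pitx1 was at 1.53 rescaled TPM there, against 0 to 0.0122 in the other mutant FL libraries of that stage, and the forelimb gene Tbx5 at 1.81, against 5.24 and 5.36. Protein-coding genes held 13.6% to 22.9% of TPM in E11.5 libraries and 14.9% to 32.8% in E10.5 libraries. The labels record a 3 nt trim for the E10.5 reads and none for E11.5, so stage and read handling cannot be told apart. The 15 limb mesenchyme markers summed to 257 to 319 rescaled TPM at E11.5 and 157 to 295 at E10.5.

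Of the 34 kinesins, 25 reached at least 1 rescaled TPM in at least 3 libraries of every fit: 11 of 12 mitotic, 9 of 12 transport, 2 of 6 cilium and 3 of 4 other kinesins. Below that filter were Kif2b, a kinetochore kinesin known mainly from testis; the neuronal motors Kif1a, Kif5a and Kif17; Kif6, Kif9, Kif19a and Kif27, which are tied to motile cilia; and Kif12. Their means over 24 libraries were 0.0158 rescaled TPM for Kif2b, 0.426 for Kif1a, 0.224 for Kif5a, 0.0544 for Kif17, 0.648 for Kif6, 0.114 for Kif9, 0.109 for Kif19a, 0.238 for Kif27 and 0.0368 for Kif12. Kif2b was listed at 0 in 14 libraries, Kif12 in 9, Kif19a in 6 and Kif17 in 2.

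The most abundant kinesin was Kif5b, the heavy chain of conventional kinesin in most tissues, with a mean of 38.8 rescaled TPM over the 24 libraries (SD 7.51). The next 9 by mean were all mitotic. Kif20a, which brings the chromosomal passenger complex to the midzone for cytokinesis, averaged 27.7 (SD 6.005). Kif11, the motor that pushes spindle poles apart, averaged 25.1 (SD 3.74), Kif2c, which depolymerizes microtubules at centromeres, 23.4 (SD 2.27), and Kif22, a chromosome-arm kinesin, 19.1 (SD 2.61). After Kif5b, the transport kinesins were led by Kif1b at 8.78 (SD 1.75), Kif5c at 5.58 (SD 1.53) and Kif1c at 3.18 rescaled TPM (SD 0.863). Of the remaining classes, Kif2a, a microtubule depolymerizer, averaged 7.18 (SD 2.01), Kif26b, known for its part in kidney development in mice, 5.48 (SD 1.61), Kif24, a suppressor of cilium formation, 3.71 (SD 0.831), and Kif7, which acts in Hedgehog signalling at the cilium tip, 1.92 rescaled TPM (SD 0.580).

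**Figure D1:**
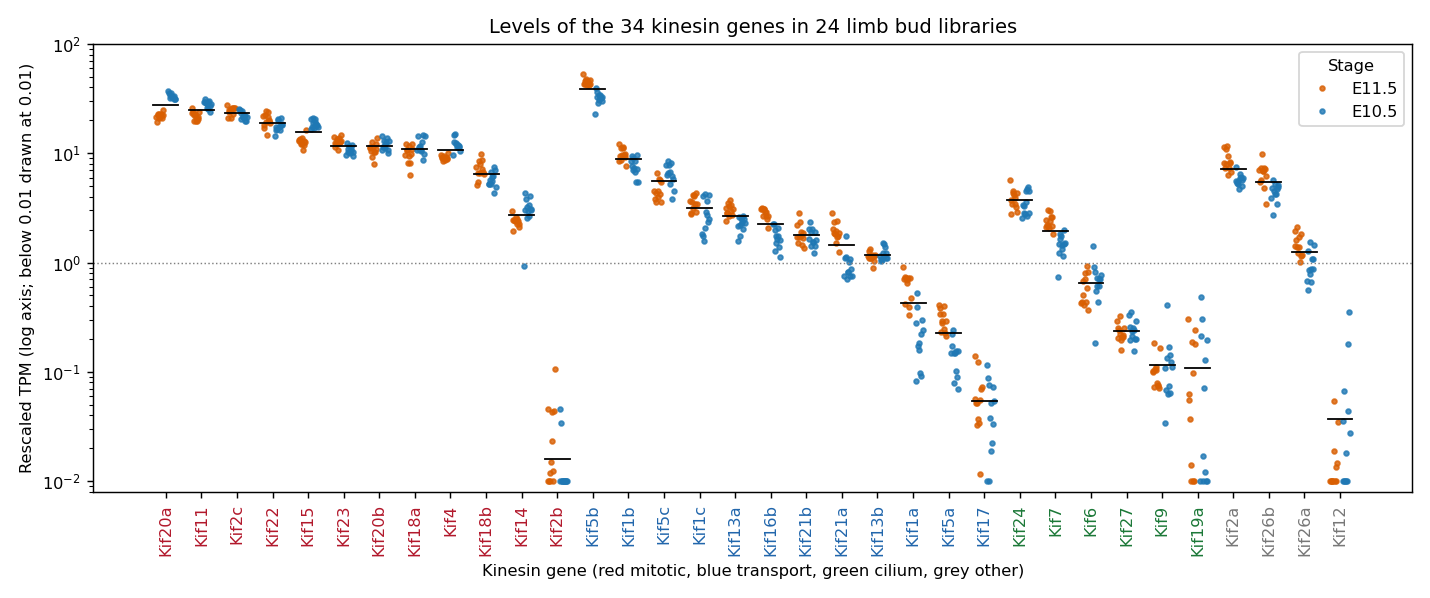
Level of each of the 34 kinesin genes (x axis, grouped by class and ordered by mean) in rescaled TPM on a log axis; each point is 1 library, E11.5 in orange left of E10.5 in blue, and the black line is the mean of all 24 libraries. Kif5b and 9 mitotic kinesins hold the highest means, and the 2 stages separate completely for Kif20a, Kif15 and Kif5b. The share of all genes that separate in this way was not counted.

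Letters near the transcription starts, which the symbol rule did not use, were compared between the classes. RefSeq promoter windows (GRCm38.p6, 250 bases before to 50 after the start) were at hand for 28 of the 34 members. Kif5a, Kif5b, Kif13b, Kif19a, Kif20a and Kif21b had none, so the most abundant transport and mitotic kinesins are not covered. A pair of short motifs known from promoters of genes expressed late in the cell cycle were searched on both strands: TTTGAA, a form of the cell cycle genes homology region, and CCAAT, the box bound by NF-Y; neither contains the other. TTTGAA stood in 9 of 11 mitotic windows (81.8%), 1 of 8 transport windows (12.5%), 1 of 5 cilium windows, 1 of 4 other windows and 20.2% of the 27025 genes in the table. The mitotic kinesins with it were Kif2c, Kif4, Kif11, Kif14, Kif15, Kif18b, Kif20b, Kif22 and Kif23; those without were Kif2b and Kif18a. CCAAT stood in 7 of 11 mitotic windows (63.6%), 1 of 8 transport windows (12.5%), 3 of 5 cilium windows (60%), 1 of 4 other windows (25%) and 41.1% of all genes, so the mitotic and cilium shares were close. The related letters TTTAAA stood in 2 of 11 mitotic windows, 0 of 8 transport windows and 14.9% of all genes. For Kif2c, Kif14, Kif17 and Kif27 the start in the RefSeq table lies more than 1000 bases inside the GENCODE gene, so their windows precede an internal start. In 7 of 11 mitotic windows TTTGAA began within 25 bases of the start, against 0 of 8 transport windows and 3.10% of all genes; that distance was chosen after the positions were seen. In Kif11, Kif15 and Kif22 the motif began 19, 19 and 17 bases before the start.

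The 150 bases before the start are given for 3 mitotic kinesins that were lower at E11.5 in the stage comparisons that follow (Kif11, Kif15, Kif4), 2 that passed in none of them (Kif2c, Kif22), and 2 transport kinesins that were higher (Kif16b, Kif21a). Their GRCm38.p6 positions and strands are Kif11 chr19:37376232-37376381 (plus), Kif15 chr9:122950931-122951080 (plus), Kif4 chrX:100625915-100626064 (plus), Kif2c chr4:117178773-117178922 (minus), Kif22 chr7:127042421-127042570 (minus), Kif16b chr2:142901465-142901614 (minus), Kif21a chr15:91049952-91050101 (minus). They are written 5′ to 3′ on the gene's strand, with capitals where TTTGAA, or the related run TTTAAA, or the box CCAAT occurs on either strand. Read on the other strand, the first appears as TTCAAA and the box as ATTGG:
Kif11: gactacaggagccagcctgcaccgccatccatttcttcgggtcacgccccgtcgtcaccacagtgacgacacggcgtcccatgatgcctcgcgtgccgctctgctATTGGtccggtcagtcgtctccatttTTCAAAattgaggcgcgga
Kif15: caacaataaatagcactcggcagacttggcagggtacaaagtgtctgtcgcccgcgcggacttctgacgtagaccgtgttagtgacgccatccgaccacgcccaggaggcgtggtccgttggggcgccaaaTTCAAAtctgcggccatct
Kif4: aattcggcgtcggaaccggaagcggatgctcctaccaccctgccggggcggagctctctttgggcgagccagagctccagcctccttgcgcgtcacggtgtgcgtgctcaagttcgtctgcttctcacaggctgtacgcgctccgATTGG
Kif2c: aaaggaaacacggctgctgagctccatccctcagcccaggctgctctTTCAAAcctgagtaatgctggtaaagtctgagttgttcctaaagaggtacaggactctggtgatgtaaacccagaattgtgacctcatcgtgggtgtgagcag
Kif22: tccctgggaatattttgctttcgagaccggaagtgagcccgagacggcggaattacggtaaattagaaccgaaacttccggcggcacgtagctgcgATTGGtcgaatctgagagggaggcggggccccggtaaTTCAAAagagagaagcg
Kif16b: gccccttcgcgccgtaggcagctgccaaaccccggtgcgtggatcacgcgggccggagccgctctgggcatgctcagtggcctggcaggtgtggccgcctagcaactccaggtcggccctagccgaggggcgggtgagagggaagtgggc
Kif21a: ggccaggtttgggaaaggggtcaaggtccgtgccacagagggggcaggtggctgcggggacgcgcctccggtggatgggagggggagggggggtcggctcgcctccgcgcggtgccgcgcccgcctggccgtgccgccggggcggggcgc
Kif4 has its TTTGAA 20 bases after the start, outside the stretch shown. Neither Kif16b nor Kif21a holds any of these letters in the stretch, and Kif22 holds TTTGAA at a distance like that of Kif11 and Kif15. In Kif2c it begins 103 bases before a start that lies 3867 bases inside the gene. A match is a run of letters and not a measured binding site.

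Between the stages, part of the mitotic class was lower and part of the transport class higher at E11.5. In FL mutant, FL WT, HL mutant and HL WT buds, 14, 11, 8 and 10 of the 25 tested kinesins were called. Across all 12118 genes tested, 36.3%, 40%, 36.3% and 42% were called in the same comparisons. The kinesins' share was above that of all genes in both FL comparisons and below it in both HL comparisons. Called kinesins numbered 8 higher and 6 lower (FL mutant), 6 and 5 (FL WT), 5 and 3 (HL mutant) and 6 and 4 (HL WT). Among all genes 18.7%, 23.3%, 18.5% and 23.8% were called higher and 17.6%, 16.8%, 17.8% and 18.2% lower. On unrescaled TPM the calls split into 2 higher and 0 lower (FL mutant), 0 and 6 (FL WT), 0 and 12 (HL mutant) and 0 and 7 (HL WT), beside shifts of the all-gene median given with the classes. Without E10.5 mutant FL replicate 3 and E10.5 WT FL replicate 1, the FL libraries with the lowest Tbx5 (1.81 and 2.25 rescaled TPM), the counts were 10, 10, 10 and 12. The FL mutant count was 9 without E10.5 mutant FL replicate 3 or without E11.5 mutant FL replicate 2. The HL mutant count was 3 without E11.5 mutant HL replicate 2, 4 without E10.5 mutant HL replicate 2, and 5 without E10.5 mutant HL replicate 3 or E11.5 mutant HL replicate 1.

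Of the mitotic kinesins, 6 of 11 were called lower in FL mutant buds, 4 in FL WT, 3 in HL mutant and 4 in HL WT, and 1, 0, 1 and 0 were called higher. The class medians were −0.35, −0.12, 0.03 and −0.14, against 0.02, 0.07, 0.03 and 0.07 over all genes. Of the transport kinesins, 5 of 9 were called higher in FL mutant buds, 3 in FL WT, 3 in HL mutant and 4 in HL WT, and only Kif5c was called lower, in FL WT. Their class medians were 0.38, 0.26, 0.20 and 0.34 on the rescaled values. On the deposited, unrescaled TPM the all-gene median itself shifted by 0.18, −0.27, −0.61 and −0.42, and the transport medians were 0.60, −0.09, −0.47 and −0.13, below 0 in 3 of 4 comparisons. Relative to the all-gene median they were still 0.42, 0.19, 0.14 and 0.29 above it, and the mitotic medians −0.31, −0.29, −0.17 and −0.32 away from it.

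**Figure D2:**
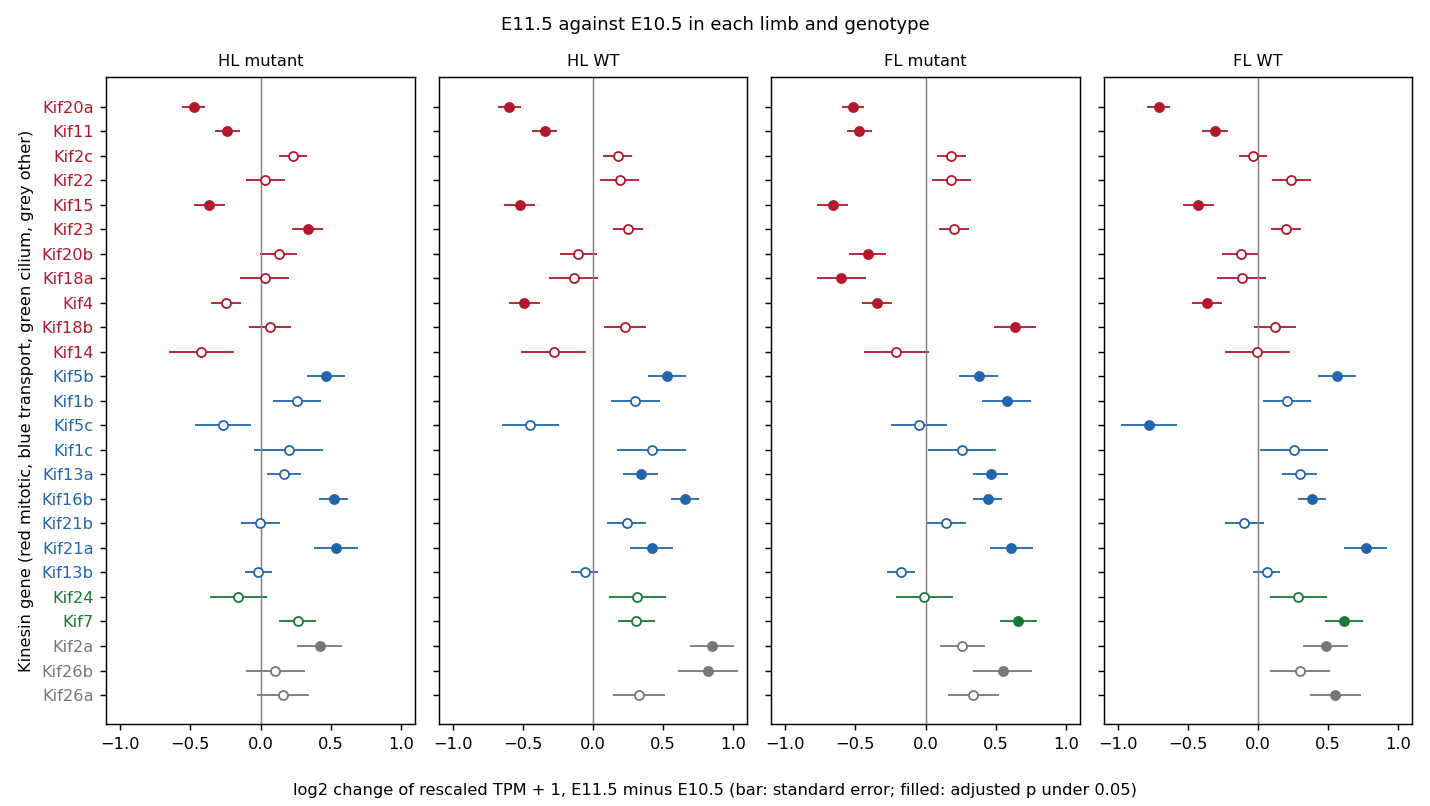
Change from E10.5 to E11.5 of the 25 tested kinesins (rows, coloured by class) in HL mutant, HL WT, FL mutant and FL WT buds, as log2 of rescaled TPM + 1, E11.5 minus E10.5; bars are standard errors and filled points have an adjusted p under 0.05. Kif20a, Kif11 and Kif15 lie below 0 and Kif5b, Kif16b and Kif21a above 0 with filled points in all 4 panels. On unrescaled TPM, Kif5b in both HL panels and Kif16b in HL mutant buds lie below 0, and neither gene is called in any panel.

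Kif20a, Kif11 and Kif15 were called lower at E11.5 in all 4 comparisons, as were 8.08% of all genes tested. Kif20a was at 21.1, 22.3 and 24.96 rescaled TPM in E11.5 HL mutants, against 33.7, 31.6 and 31.0 in E10.5 HL mutants. In HL WT it was at 23.0, 21.2 and 22.7 at E11.5, against 33.9, 35.8 and 33.0 at E10.5. In FL mutants it was at 21.6, 22.2 and 22.8 at E11.5, against 32.4, 32.8 and 31.5 at E10.5, and in FL WT at 21.4, 19.2 and 22.4, against 37.0, 35.9 and 32.0. All 12 E11.5 libraries (19.2 to 24.96) lay below all 12 E10.5 libraries (31.0 to 37.0). The share of all genes that separate in this way, as Kif15 and Kif5b below also did, was not counted. The changes were −0.48, −0.60, −0.52 and −0.71 (SE 0.08 each; limma adjusted p = 0.000256, 3.11e-05, 0.00021 and 8.46e-06 for HL mutant, HL WT, FL mutant and FL WT), and each stayed called with any 1 library left out. On unrescaled TPM Kif20a was lower in all 4 as well, but the FL mutant change of −0.28 was not called (adjusted p = 0.49). Kif20a overlaps Cdc23 on the other strand, and the strand the authors counted is not given in the sources used here.

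Kif15, a spindle motor that can stand in for Kif11, was at 11.8, 12.8 and 16.4 rescaled TPM in E11.5 HL mutants, against 17.7, 18.3 and 17.2 at E10.5, and at 12.8, 12.1 and 13.7 in E11.5 HL WT, against 21.2, 18.8 and 16.9 at E10.5. In FL mutants it was at 12.2, 10.7 and 12.9, against 19.3, 20.4 and 18.4, and in FL WT at 13.0, 13.1 and 13.6, against 16.6, 20.8 and 17.5. The stages again did not overlap over 12 and 12 libraries, although the highest E11.5 value (16.4) lay close to the lowest at E10.5 (16.6). The changes were −0.37 ± 0.11, −0.52 ± 0.11, −0.66 ± 0.11 and −0.43 ± 0.11 (SE; limma adjusted p = 0.0156, 0.00125, 0.000363 and 0.00574 for HL mutant, HL WT, FL mutant and FL WT). The HL mutant call was lost without E10.5 mutant HL replicate 2 or E11.5 mutant HL replicate 1 or 2, with adjusted p up to 0.0963. On unrescaled TPM Kif15 was lower in every comparison, but the FL mutant change of −0.44 was not called (adjusted p = 0.309). Its limma adjusted p in FL WT ran up to 0.0527 over all alternatives, so that call was not kept in each.

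Kif11 ranged over 19.5, 21.9 and 25.8 rescaled TPM (lowest, median, highest of 12 libraries) at E11.5, against 23.6, 28.6 and 31.5 at E10.5. Within HL mutants it was at 20.8, 21.5 and 23.7 at E11.5, against 23.6, 26.8 and 28.0 at E10.5, where E10.5 replicate 1 reached the E11.5 range. In the other 3 comparisons the stages did not overlap. Its changes were −0.24 ± 0.09 (HL mutant), −0.35 ± 0.09 (HL WT), −0.47 ± 0.09 (FL mutant) and −0.31 ± 0.09 (FL WT), with limma adjusted p = 0.0437, 0.00488, 0.000859 and 0.0113. The HL mutant call was lost in 4 of 6 leave-outs of 1 library, with adjusted p up to 0.151. In FL WT the limma adjusted p ran up to 0.0922 over all alternatives, so that call was not kept in each. On unrescaled TPM Kif11 was lower in all 4 comparisons, but the FL mutant change of −0.24 was not called (adjusted p = 0.529).

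Kif4, a chromokinesin that works with Prc1 on the midzone, was called lower in 3 comparisons: −0.49 ± 0.11 in HL WT, −0.35 ± 0.11 in FL mutant and −0.36 ± 0.11 in FL WT (limma adjusted p = 0.00178, 0.0188 and 0.0131). In HL WT it was at 9.05, 8.44 and 9.53 rescaled TPM at E11.5, against 14.95, 12.04 and 12.3 at E10.5. In HL mutants its change was −0.25 ± 0.11 (adjusted p = 0.0829). The FL mutant call was lost without E11.5 mutant FL replicate 1 (adjusted p = 0.0560) and the FL WT call without E10.5 WT FL replicate 2 (adjusted p = 0.0849).

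The other mitotic members did not move together. Kif18a and Kif20b were called lower and Kif18b higher in FL mutants alone, with changes of −0.60 ± 0.17, −0.41 ± 0.13 and 0.64 ± 0.15 (limma adjusted p = 0.0124, 0.0201 and 0.00366). In the other 3 comparisons the changes were −0.14 to 0.03 for Kif18a, −0.12 to 0.13 for Kif20b and 0.07 to 0.23 for Kif18b. The calls of Kif18a and Kif20b were lost without E10.5 mutant FL replicate 3, the library with hindlimb markers (adjusted p = 0.0603 and 0.0663), and without E11.5 mutant FL replicate 2 (0.0786 and 0.120). Kif23, the centralspindlin motor, was called higher in HL mutants alone (0.34 ± 0.11, adjusted p = 0.0218) and lay at 0.20 to 0.25 elsewhere; leaving out 1 of 3 libraries ended that call (adjusted p up to 0.0880), and its unrescaled change was −0.46. Kif2c, Kif22 and Kif14, a cytokinesis kinesin, were called in no stage comparison. Kif2c was at 20.9, 25.2 and 27.4 rescaled TPM at E11.5, against 19.9, 21.8 and 25.3 at E10.5 (lowest, median, highest). Kif22 was at 14.8, 20.0 and 24.2 at E11.5, against 14.3, 17.6 and 21.1 at E10.5. Both overlapped widely between the stages.

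**Figure D3:**
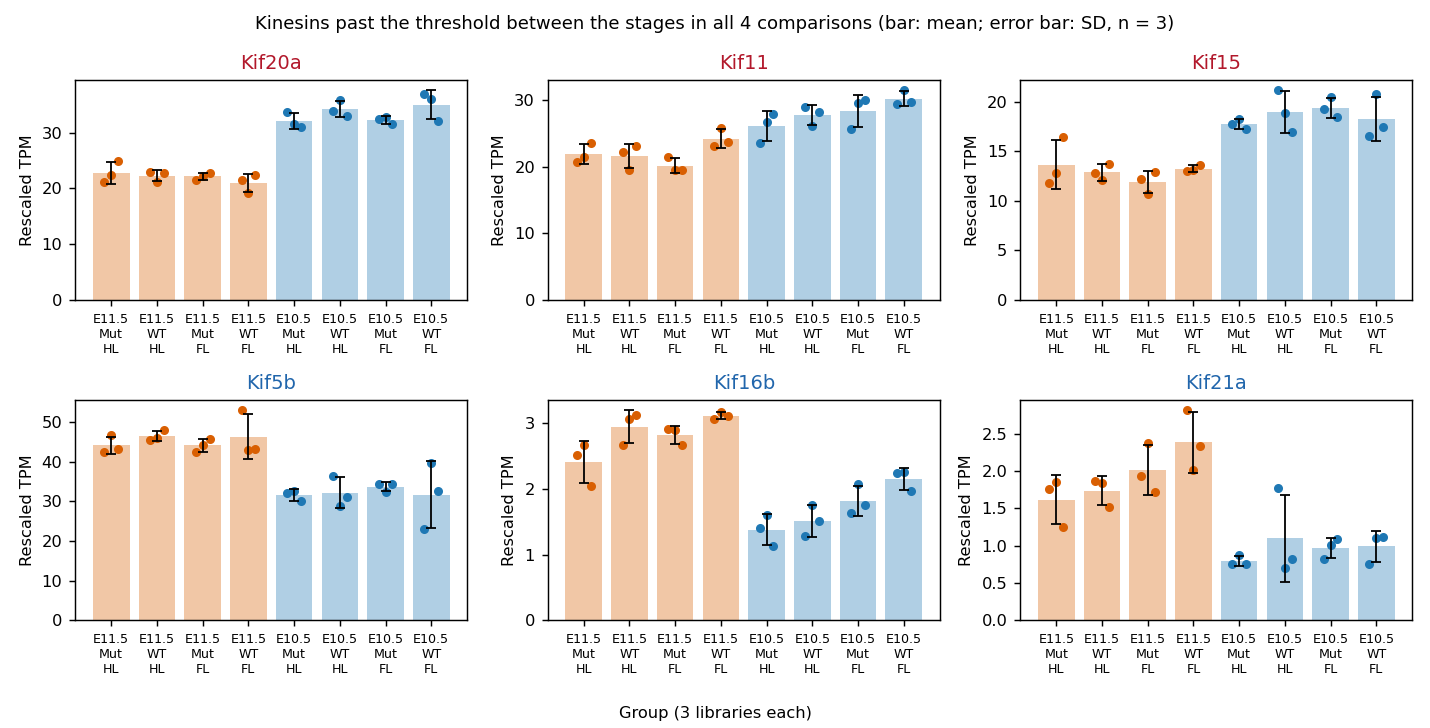
Rescaled TPM (y axes from 0) of the 6 kinesins called between the stages in all 4 comparisons, in each of the 8 groups; points are libraries, bars means and error bars SD (n = 3). E11.5 groups (orange, left) lie lower than E10.5 groups (blue, right) for Kif20a, Kif11 and Kif15 and higher for Kif5b, Kif16b and Kif21a on this scale. On unrescaled TPM Kif5b in both HL comparisons and Kif16b in HL mutants turn round, and neither gene is called in any comparison.

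Among the transport kinesins, Kif5b, Kif16b and Kif21a were called higher at E11.5 in all 4 comparisons, as were 6.85% of all genes tested. Kif5b was at 42.6, 46.7 and 43.2 rescaled TPM in E11.5 HL mutants, against 32.2, 32.7 and 30.0 at E10.5, and at 45.5, 46.0 and 48.1 in E11.5 HL WT, against 36.5, 28.9 and 31.0 at E10.5. In FL mutants it was at 42.4, 44.2 and 45.9, against 34.4, 32.5 and 34.4, and in FL WT at 53.0, 42.9 and 43.2, against 22.9, 39.7 and 32.6. All 12 E11.5 libraries (42.4 to 53.0) lay above all 12 E10.5 libraries (22.9 to 39.7). The changes were 0.47 ± 0.14, 0.53 ± 0.14, 0.38 ± 0.14 and 0.56 ± 0.14 (SE; limma adjusted p = 0.0127, 0.00507, 0.0373 and 0.00386 for HL mutant, HL WT, FL mutant and FL WT). The FL mutant call was lost in each of the 6 leave-outs of 1 library (adjusted p up to 0.101) and the HL mutant call without E11.5 mutant HL replicate 2 (adjusted p = 0.0544). On unrescaled TPM its change was −0.37 ± 0.30 in HL mutants and −0.11 ± 0.30 in HL WT, the opposite direction, beside all-gene medians of −0.61 and −0.42. Unrescaled FL changes were 0.62 in mutants and 0.09 in WT (adjusted p = 0.183 and 0.878), so Kif5b was called in none of the 4 on that scale. On protein-coding genes summed anew the HL mutant change was 0.38 and not called (adjusted p = 0.0906).

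A ratio of 2 genes within a library does not depend on the scale. Kif5b over Kif20a, a pair chosen after the values were seen, was 1.73, 2.01 and 2.47 (lowest, median, highest) in the 12 E11.5 libraries, against 0.619, 1.00 and 1.104 in the 12 E10.5 libraries. E11.5 mutant HL replicate 3 had the lowest ratio of its stage, and E10.5 WT FL replicate 1 the lowest of all; the stages did not overlap. The summed level of the 12 mitotic kinesins over that of the 12 transport kinesins was 1.87, 2.08 and 2.52 at E11.5, against 2.77, 2.98 and 3.45 at E10.5, again without overlap. Without Kif20a and Kif5b the same ratio was 3.66, 4.602 and 5.97 at E11.5, against 4.71, 5.65 and 6.89 at E10.5, and the stages overlapped. The sums were 141 to 170 rescaled TPM (mitotic) and 67.5 to 87.0 (transport) at E11.5, against 167 to 196 and 49.1 to 66.0 at E10.5.

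Kif16b, which moves early endosomes, was at 2.51, 2.67 and 2.05 rescaled TPM in E11.5 HL mutants, against 1.40, 1.61 and 1.14 at E10.5, and at 2.66, 3.06 and 3.12 in E11.5 HL WT, against 1.28, 1.76 and 1.505 at E10.5. In FL mutants it was at 2.90, 2.89 and 2.66, against 1.63, 2.07 and 1.76, and in FL WT at 3.06, 3.17 and 3.11, against 2.25, 2.25 and 1.96. No comparison overlapped, but the lowest E11.5 HL mutant library lay below some E10.5 FL libraries. The changes were 0.52, 0.65, 0.44 and 0.38 (SE 0.10 each; limma adjusted p = 0.000781, 0.000101, 0.003 and 0.00611 for HL mutant, HL WT, FL mutant and FL WT). On unrescaled TPM Kif16b was called in none of them. The HL mutant change was −0.06 ± 0.21 and those in HL WT, FL mutant and FL WT were 0.22, 0.60 and 0.035. Their limma adjusted p were 0.829, 0.430, 0.0784 and 0.937 in that order.

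Kif21a, a kinesin that restrains microtubule growth at the cell edge, was at 1.24, 1.86 and 2.81 rescaled TPM at E11.5 (lowest, median, highest of 12), against 0.705, 0.848 and 1.77 at E10.5. The highest E10.5 library was WT HL replicate 1, which lay inside the E11.5 range, and the other 11 did not exceed 1.12. The changes were 0.54 ± 0.16, 0.42 ± 0.16, 0.61 ± 0.16 and 0.77 ± 0.16 (limma adjusted p = 0.0122, 0.0385, 0.00601 and 0.00109 for HL mutant, HL WT, FL mutant and FL WT). The HL WT call was lost in 4 of 6 leave-outs of 1 library (adjusted p up to 0.182), and the HL mutant call without E11.5 mutant HL replicate 2 (0.0592). On unrescaled TPM the changes were 0.07 in HL mutants, 0.03 in HL WT and 0.46 in FL WT, none of them called (adjusted p = 0.818, 0.928 and 0.168), and 0.75 in FL mutants (0.0474). On protein-coding genes summed anew the HL WT change was 0.40 (adjusted p = 0.0749).

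Kif5c, a conventional kinesin heavy chain enriched in neurons, went the other way. In FL WT it was at 4.52, 3.79 and 3.58 rescaled TPM at E11.5, against 7.87, 6.27 and 8.54 at E10.5, a change of −0.78 ± 0.20 (limma adjusted p = 0.00529) that stayed called in all 6 leave-outs of 1 library. Its changes were −0.05 ± 0.20 in FL mutants, −0.27 ± 0.20 in HL mutants and −0.45 ± 0.20 in HL WT, none of them called. The 15 neuron and Schwann cell markers summed to 17.6 to 23.4 rescaled TPM at E11.5 and 14.7 to 22.9 at E10.5, with only 5 of 15 above the filter; in FL WT Gap43 was called lower (−0.71, adjusted p = 0.0088) and Erbb3 and Map2 higher (0.90 and 0.48). The part of these cells in the Kif5c value was not tested. Kif1b was called higher in FL mutants (0.58 ± 0.17, adjusted p = 0.0146) and Kif13a, an endosomal motor, in FL mutants and HL WT (0.46 ± 0.12 and 0.34 ± 0.12, adjusted p = 0.00741 and 0.0333). The Kif1b call was lost without E10.5 mutant FL replicate 3 (adjusted p = 0.0796) or E11.5 mutant FL replicate 2 (0.0502), and Kif13a in HL WT without either E10.5 WT HL replicate 1 or 2 or E11.5 WT HL replicate 2 (up to 0.160), and its unrescaled HL WT change was −0.13. Kif1c, Kif13b and Kif21b were called in none.

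In the cilium and other classes every call was a rise at E11.5 on rescaled TPM. On unrescaled TPM no kinesin was called higher in FL WT, HL mutant or HL WT buds. The rises called there were thus lost on that scale, and Kif2a in HL mutants turned to −0.33. Kif7 was at 2.42, 2.95 and 2.62 rescaled TPM in E11.5 FL mutants, against 1.46, 1.34 and 1.15 at E10.5, and at 2.44, 2.13 and 2.20 in E11.5 FL WT, against 0.745, 1.23 and 1.47 at E10.5. The FL changes were 0.66 ± 0.13 and 0.61 ± 0.13 (limma adjusted p = 0.0013 and 0.00177). Over all alternatives these adjusted p ran up to 0.0860 and 0.4005, and with 1 library left out up to 0.0101 and 0.00956. In HL the changes of Kif7 were 0.26 ± 0.13 in mutants and 0.31 ± 0.13 in WT (adjusted p = 0.123 and 0.0695). Kif7 overlaps Ticrr on the other strand.

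Kif2a was at 7.96, 10.95 and 11.7 rescaled TPM in E11.5 HL WT, against 5.22, 5.52 and 4.74 at E10.5, a change of 0.85 ± 0.16 (limma adjusted p = 0.000509). It was also called in HL mutants (0.42 ± 0.16, adjusted p = 0.0449) and FL WT (0.48 ± 0.16, 0.0227), and those calls were lost in 5 and 3 of 6 leave-outs of 1 library, with adjusted p up to 0.138 and 0.148. With the replicate number of the labels as a block, the HL mutant value was no longer called (adjusted p = 0.0514). Kif26b was at 7.36, 9.77 and 6.83 in E11.5 HL WT, against 2.75, 4.49 and 5.24 at E10.5 (0.82 ± 0.21, adjusted p = 0.00499), and in FL mutants changed by 0.55 ± 0.21 (adjusted p = 0.0495, lost in 5 of 6 leave-outs with values up to 0.169, and 0.0503 with the block). Kif26a was called in FL WT alone (0.55 ± 0.18, adjusted p = 0.0228), at 1.96, 1.42 and 1.62 at E11.5, against 0.678, 0.558 and 1.28 at E10.5; 3 of 6 leave-outs ended that call (up to 0.0933). Unrescaled, the HL WT calls of Kif2a and Kif26b and the FL WT calls of Kif2a and Kif26a were lost. Over all alternatives their limma adjusted p ran up to 0.438, 0.474, 0.915 and 0.374 in that order. Kif24 was called in no stage comparison on rescaled TPM.

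No kinesin was called for a difference between the genotypes' stage changes, in FL or in HL, where 0.066% and 0.00825% of all genes were. At an unadjusted p under 0.05 there were 2 kinesins in FL and 1 in HL, against 12.7% and 2.53% of all genes. These were Kif5c (0.74 ± 0.28, adjusted p = 0.292) and Kif18b (0.52 ± 0.21, adjusted p = 0.32) in FL and Kif26b (−0.71 ± 0.30, adjusted p = 1) in HL. The stage values of mutants and WT are therefore given side by side, and the calls found in a single genotype were not shown to differ between genotypes.

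**Figure D4:**
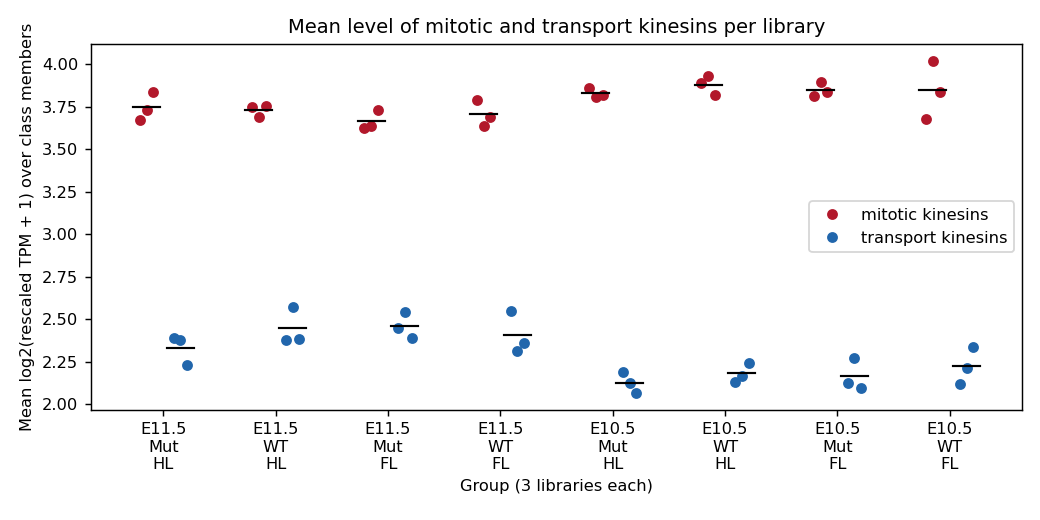
Mean log2(rescaled TPM + 1) over the 11 mitotic kinesins and the 9 transport kinesins with a mean of at least 1 rescaled TPM (y axis) in each library, by group; points are libraries and lines group means (n = 3). Transport means lie higher in the 4 E11.5 groups (left) than in the 4 E10.5 groups (right) on this scale; on unrescaled TPM the transport change is below 0 in 3 of 4 stage comparisons.

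Averaged over class members on the log2 scale, the mitotic minus transport gap was smaller at E11.5 by 0.48 in FL mutants, 0.32 in FL WT, 0.29 in HL mutants and 0.41 in HL WT, written −0.48, −0.32, −0.29 and −0.41 as E11.5 minus E10.5, with a pooled SD between libraries of 0.12. Per library the gap was 1.099, 1.33 and 1.60 at E11.5 (lowest, median, highest), against 1.501, 1.69 and 1.81 at E10.5. The only E11.5 library inside the E10.5 range was mutant HL replicate 3. No test was made on these averages, since the members were chosen with results known.

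Mutant and WT buds were compared within each limb and stage to ask whether loss of U11 changed kinesin transcripts. No kinesin was called in any of the 4 comparisons (limma). Xist reached 5 TPM in E10.5 mutant FL and HL replicates 1 and 3 and in E11.5 mutant FL and HL replicate 3, but in no WT library. Neither these comparisons nor the stage comparisons of mutants are therefore balanced for Xist. On unrescaled TPM 6 were called higher in E11.5 FL, where the all-gene median was 0.39. Of all genes, 1.66% were called in E11.5 FL, 0.0175% in E11.5 HL, and at E10.5 0.0265% (FL) and 0.00882% (HL). At an unadjusted p under 0.05 there were 4, 3, 0 and 0 kinesins of 25, against 22.7%, 6.19%, 5.16% and 1.9% of all genes. The mitotic medians were −0.04, 0.03, −0.02 and −0.06 and the transport medians −0.06, −0.08, −0.01 and −0.07, against −0.03, −0.04, 0.02 and −0.0015 over all genes. A p over the threshold does not show that the genotypes were alike: the changes of single kinesins ran from −0.48 to 0.50. The targeted gene Rnu11 was itself called in E11.5 FL alone.

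The kinesins with the lowest p were all mitotic in E11.5 FL. Kif18b, which works at the ends of astral microtubules, was at 7.97, 9.85 and 8.68 rescaled TPM in mutants, against 7.53, 5.11 and 5.43 in WT, without overlap (0.50 ± 0.14, limma adjusted p = 0.0735, from 0.0273 to 0.247 over the alternatives). WT replicate 1 was the WT library nearest the mutants. Without it the change was 0.65 ± 0.12 (adjusted p = 0.0277), and this was the only leave-out in which a kinesin was called between genotypes. Kif11 was at 21.5, 19.6 and 19.5 in mutants, against 23.2, 25.8 and 23.7 in WT (−0.25 ± 0.09, adjusted p = 0.122, from 0.103 to 0.324). Kif18a, which limits the length of kinetochore microtubules, was at 9.52, 6.28 and 8.11 in mutants, against 9.72, 12.2 and 10.8 in WT (−0.42 ± 0.15, adjusted p = 0.14, from 0.078 to 0.811). Both were without overlap, and both were above 0 on unrescaled TPM, at 0.25 for Kif11 and 0.05 for Kif18a, where the all-gene median was 0.39. Groups without overlap were 2 kinesins higher and 5 lower of 25 in E11.5 FL, against 11.4% and 14.4% of all genes. Kif18a overlaps Mettl15 on the other strand.

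In E11.5 HL the lowest p values belonged to Kif16b (−0.21 ± 0.09), Kif21b (−0.31 ± 0.14) and Kif26b (−0.48 ± 0.22), each with adjusted p = 0.75. Kif26b was at 7.13, 6.18 and 3.42 rescaled TPM in mutants, against 7.36, 9.77 and 6.83 in WT, and Kif21b at 1.87, 1.68 and 1.37, against 1.72, 2.83 and 2.36. For all 3 genes the groups overlapped, and mutant replicate 3 was the lowest library. In E10.5 FL they were Kif21b (−0.30), Kif2c (−0.20) and Kif5c (−0.38), each with adjusted p = 0.906. Kif2c was at 21.6, 22.3 and 19.9 in mutants, against 25.3, 25.02 and 23.4 in WT, without overlap. In E10.5 HL they were Kif5c (−0.31), Kif24 (0.29) and Kif4 (−0.20), each with adjusted p = 1. Kif5c was at 6.22, 5.76 and 4.53 in mutants, against 6.59, 7.76 and 6.80 in WT, without overlap. In E10.5 FL it was at 5.27, 8.17 and 3.83, against 7.87, 6.27 and 8.54, with overlap. Groups without overlap were 0 kinesins higher and 2 lower of 25 in E10.5 FL, and the same in E10.5 HL. Of 11336 genes they were 622 higher and 545 lower in FL and 257 and 373 in HL.

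**Figure D5:**
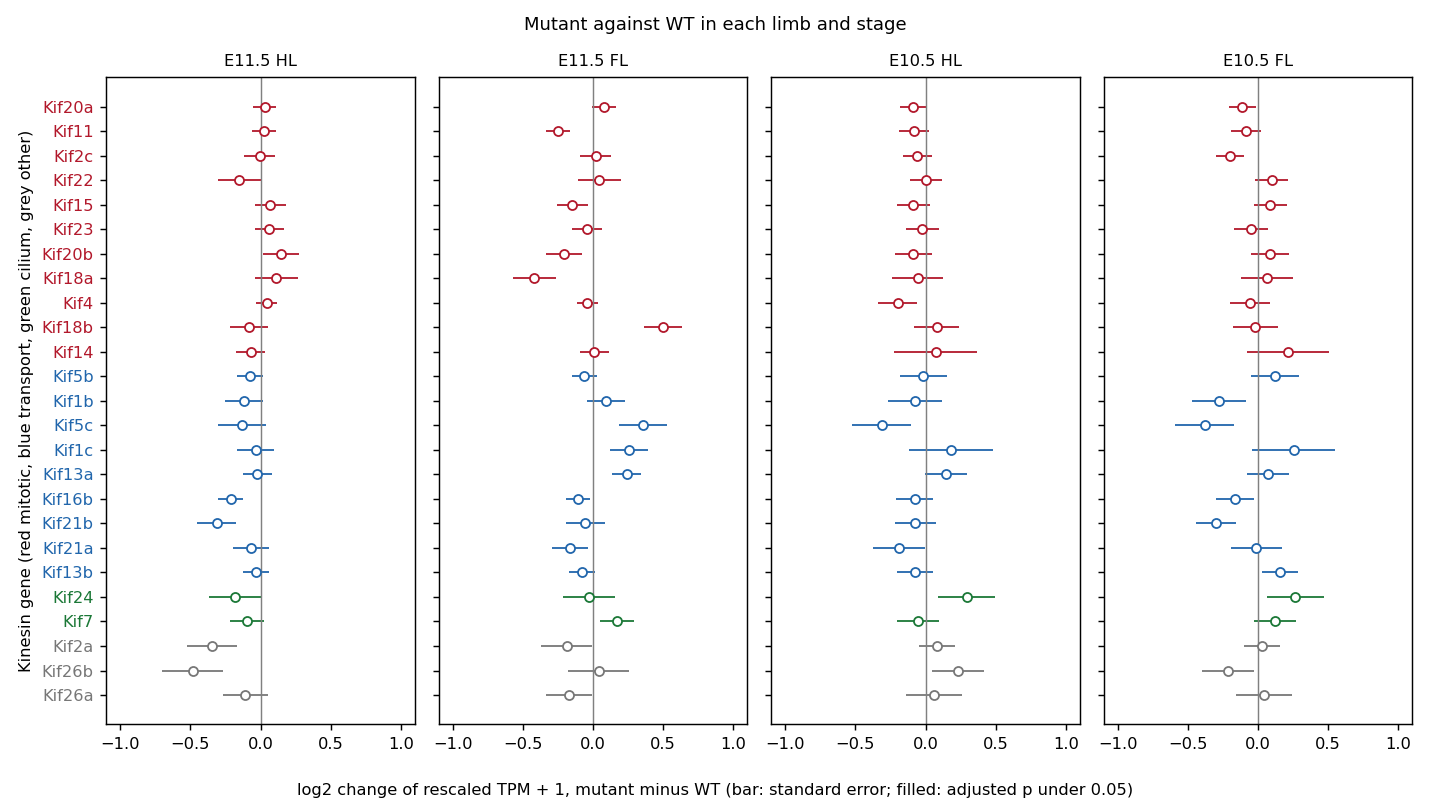
Mutant minus WT change of the 25 tested kinesins (rows, coloured by class) in E11.5 HL, E11.5 FL, E10.5 HL and E10.5 FL buds, as log2 of rescaled TPM + 1; bars are standard errors, and filled points would mark an adjusted p under 0.05. No point is filled; the farthest from 0 are Kif18b at 0.50 in E11.5 FL and Kif26b at −0.48 in E11.5 HL, and on unrescaled TPM Kif11 and Kif18a in E11.5 FL turn to above 0.

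The genotype change was also compared between limbs. No kinesin was called, where 0.0175% of all genes were at E11.5 and 0% at E10.5 (limma). At E11.5, 3 of 25 kinesins had an unadjusted p under 0.05, against 13.4% of all genes, and at E10.5 0 of 25, against 2.51%. The 3, named after their values were seen, were Kif18b (−0.58 ± 0.19, adjusted p = 0.339), Kif18a (0.53 ± 0.22, adjusted p = 0.355) and Kif11 (0.28 ± 0.12, adjusted p = 0.367), each HL minus FL. In HL the mutant and WT libraries of these 3 overlapped: Kif18b was at 7.10, 6.76 and 6.40 in mutants, against 6.55, 8.55 and 6.61 in WT, and Kif18a at 9.81, 10.97 and 12.3, against 10.8, 8.22 and 11.55.

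Hindlimb and forelimb did not differ in any kinesin past the threshold (limma), where 0.377% (E11.5 mutant), 0.149% (E11.5 WT), 0.0618% (E10.5 mutant) and 0.124% (E10.5 WT) of all genes were called. On unrescaled TPM 10 were called lower in E11.5 mutant HL, where the all-gene median was −0.44. At an unadjusted p under 0.05 there were 3, 1, 0 and 2 kinesins of 25, against 16.2%, 6.97%, 6.69% and 9.35% of all genes. In E10.5 WT these were Kif16b, at 1.28, 1.76 and 1.505 in HL, against 2.25, 2.25 and 1.96 in FL (−0.33 ± 0.13, adjusted p = 0.474), and Kif7, at 1.65, 1.82 and 1.77, against 0.745, 1.23 and 1.47 (0.37 ± 0.15, adjusted p = 0.486). Both were without overlap. The 1 in E11.5 WT was Kif21a (−0.30 ± 0.13, adjusted p = 0.678), and the 3 in E11.5 mutants were Kif18a, Kif20b and Kif18b (0.43, 0.35 and −0.34, adjusted p from 0.227 to 0.259). These names were chosen after the values were seen. Groups without overlap in E10.5 WT were 1 kinesin higher and 2 lower of 25 in HL, against 645 and 681 of 11336 genes.

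Kinesins outside the symbol rule were examined for the same pattern. Kifc1, a minus-end motor of the spindle, was called higher at E11.5 in all 4 comparisons (0.44, 0.64, 0.79 and 0.50 for HL mutant, HL WT, FL mutant and FL WT; limma adjusted p = 0.0122, 0.000849, 0.000306 and 0.00553), opposite to Kif11, Kif15 and Kif20a, although the unrescaled HL mutant change was −0.33. It has a near-identical copy, Kifc5b, between which reads may have been split, so its values are uncertain. Kifc3 was called higher in 3 of 4 (0.38, 0.41 and 0.32 in HL WT, FL mutant and FL WT). Cenpe, the kinetochore motor of chromosome alignment, was called lower in FL mutants alone (−0.40 ± 0.15, adjusted p = 0.0433), Stard9 in none, and Kifc2 was below the filter.

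Of 25 mitotic partners and spindle genes, 3, 4, 5 and 2 were called higher and 6, 7, 7 and 7 lower at E11.5 in FL mutant, FL WT, HL mutant and HL WT buds, with medians of 0.05, 0.08, 0.12 and 0.04. Of all genes tested, 18.7%, 23.3%, 18.5% and 23.8% were called higher and 17.6%, 16.8%, 17.8% and 18.2% lower. These shares stand beside the regulators further on as well. Unrescaled, the calls among the mitotic partners and spindle genes were 0 higher in each and 0, 7, 15 and 10 lower. The lower ones included Tpx2, which helps Kif11 and Kif15 load on the spindle (−0.60, −0.78, −0.70 and −0.95), and the passenger complex subunit Birc5 (−0.49, −0.66, −0.58 and −0.84). Bub1b, a spindle checkpoint kinase, was lower as well (−0.63, −0.93, −0.49 and −0.69). Cenpf, a kinetochore protein, was called higher in FL WT, HL mutant and HL WT (0.51, 0.64 and 0.67), and the proliferation marker Mki67 in the same 3 (0.42, 0.44 and 0.55), but unrescaled Cenpf was −0.17 in HL mutants and Mki67 was −0.06, −0.39 and −0.09. Tpx2, Birc5 and Bub1b were called lower in all 4 comparisons, as were 8.08% of all genes. Genes of this list, like all genes, were called in both directions. Of 17 regulators of late cell cycle promoters, 5, 6, 4 and 6 were called higher and 3, 4, 5 and 3 lower in the same order. Unrescaled, 0 were called higher in each and 0, 4, 8 and 6 lower. Foxm1 was called lower in FL WT and HL mutant buds (−0.34 and −0.35) and Nfyb, a subunit of NF-Y, higher in all 4 (0.44, 0.30, 0.54 and 0.41), with unrescaled values below 0 in all but FL mutants.

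Of 12 kinesin light chains and cargo adaptors in the files, 10 were tested, and 6, 4, 6 and 5 were called higher at E11.5 in FL mutant, FL WT, HL mutant and HL WT buds; 1, Fez1 in HL WT, was called lower (−0.77). Of all genes tested, 18.7%, 23.3%, 18.5% and 23.8% were called higher and 17.6%, 16.8%, 17.8% and 18.2% lower on rescaled TPM. Of the light chains and adaptors, 2, 0, 0 and 0 were called higher unrescaled and 0, 0, 3 and 1 lower. On protein-coding genes summed anew, 6, 4, 1 and 5 of them were called higher. The list medians were 0.42, 0.31, 0.38 and 0.53 on rescaled TPM and 0.60, −0.07, −0.32 and −0.02 unrescaled. Kif1bp, a binding partner of several kinesins (0.39, 0.45, 0.42 and 0.71), the light chain Klc3 (0.55, 0.45, 0.62 and 0.64) and the JNK-pathway adaptor Mapk8ip3 (0.44, 1.01, 0.36 and 0.66) were called higher in all 4, although unrescaled Kif1bp and Mapk8ip3 were at −0.33 and −0.43 in HL mutants. Of all genes, 6.85% were called higher in all 4. None of these 3 lists had a member called between mutant and WT in any limb or stage, where 1.66% of all genes or fewer were called.

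Members of several cell type lists were also called between the stages on rescaled TPM. Counts are in the order FL mutant, FL WT, HL mutant and HL WT. Of all genes, 18.7%, 23.3%, 18.5% and 23.8% were called higher and 17.6%, 16.8%, 17.8% and 18.2% lower. No list was tested against these shares. Of 10 endothelial markers 1, 0, 0 and 0 were called higher and 2, 5, 7 and 6 lower at E11.5, with sums of 24.8 to 44.3 rescaled TPM at E11.5, against 36.9 to 76.9 at E10.5. Of 15 limb mesenchyme markers 5, 3, 3 and 5 were called higher and 1, 3, 2 and 2 lower. Of 10 surface ectoderm markers 2, 3, 5 and 2 were called higher and 5, 2, 0 and 1 lower, with sums of 55.7 to 120 at E11.5, against 43.0 to 105 at E10.5. Of 11 erythroid markers tested 0, 3, 2 and 3 were called higher and 5, 1, 0 and 0 lower, with sums of 2458 to 5127 at E11.5, against 1411 to 5525 at E10.5. Of 6 myogenic markers tested 3, 2, 1 and 1 were called higher and 1, 2, 0 and 1 lower. Unrescaled, the higher and lower calls were 0, 0, 0 and 0 and 0, 3, 10 and 8 for endothelial markers, 4, 0, 2 and 2 and 0, 3, 5 and 4 for mesenchyme, and 2, 2, 2 and 2 and 2, 3, 4 and 6 for ectoderm. For erythroid markers they were 0, 1, 0 and 1 and 0, 1, 5 and 1, and for myogenic markers 3, 2, 1 and 0 and 0, 2, 0 and 2. Between genotypes, all 11 tested erythroid markers were higher in E10.5 FL mutants than in WT (median 0.73), with sums of 4533 to 5525 against 2056 to 2914. There 13 of 15 limb mesenchyme markers were lower in mutants (median −0.34). No marker of either list was called in that comparison, and elsewhere the erythroid sums of the genotypes overlapped. The part of these cells in the kinesin values was not tested.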

How the data were processed

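The authors deposited TPM for each symbol, scaled to 1000000 in each of 24 libraries; per the submitters' processing notes HISAT2 and mm10 were used, and quantifier, annotation and counted strand were not found in the labels. Libraries were rescaled to an equal median log2 over 3518 genes of at least 5 TPM in every library (factors 0.539 to 1.51). Tests covered genes that reached 1 rescaled TPM in 3 or more of the libraries fitted, as log2(value + 1) with limma 3.58.1 (R 4.3.3), two-sided with Benjamini-Hochberg adjustment: within stage on 12 libraries, between stages on all 24. The fits were checked on simulated data, with changes larger than that of any tested kinesin and not in genes at the lowest levels tested. Recovery of changes as small as those of the kinesins was therefore not checked. Named kinesins are those called (between stages the 5 largest in each direction in WT), the most abundant of each class, and the 3 of lowest p per genotype comparison; the remaining calls are given too. Members, classes and lists were chosen with earlier results of these data known. Replicates correlated at 0.921 to 0.977 and none was identical. Equal replicate numbers deviated together with a correlation over 0.1 in every pair, at 0.103 to 0.186, for E10.5 mutant HL and FL, 1 of 28 pairs of groups. A block changed no kinesin call there. Annotation was GENCODE M21 (GRCm38), in which 22 members overlap another gene; no genome sequence was used here.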

Additional observations from a re-analysis of the deposited data

How the results depend on the processing

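Called kinesins numbered 0 in all genotype and limb comparisons and differences under the alternatives, except on unrescaled TPM (6 in E11.5 FL mutant against WT, all higher, and 10 in E11.5 mutant HL against FL, all lower, beside all-gene medians of 0.39 and −0.44) and 0 to 1 with 1 library left out in E11.5 FL. Between stages the FL mutant count of 14 became 2 unrescaled, 3 without the 6 mutant libraries with Xist of at least 5 TPM (1 mutant library then remains in each E10.5 limb, its spread taken from the other groups) and 9 to 13 with 1 library left out. The FL WT count of 11 became 6 unrescaled and 4 with only the groups compared (9 to 12 left out). The HL mutant count of 8 became 5 on protein-coding genes summed anew and 3 without the Xist libraries (3 to 7 left out), and the HL WT count of 10 stayed at 8 to 11 left out. The mitotic minus transport change was −0.44 (HL mutant) and −0.53 (HL WT) unrescaled. Unrescaled reversals, beside a shift of most genes, were Kif11 (0.25) and Kif18a (0.051) in E11.5 FL mutant against WT and Kif18a in the difference between limbs (−0.014); between stages Kif16b (−0.056), Kif5b (−0.37), Kif23 (−0.46) and Kif2a (−0.33) in HL mutants, and Kif5b (−0.11) and Kif13a (−0.13) in HL WT. Kif5c in E10.5 FL mutant against WT was 0.11 without the Xist libraries. Apart from the scale and the numbers of libraries, the cause was not tested. With the replicate number as a block, 13 FL mutant and 7 HL mutant kinesins were called between stages. Only for E10.5 mutant HL and FL did every equal number correlate above the limit of 0.1, and elsewhere the block rests on a shared number. For E11.5 mutant HL and FL the values were −0.009, 0.255 and 0.177, and for E10.5 WT HL and FL 0.150, 0.061 and 0.291. Whether equal numbers share an embryo is not known, so the HL against FL tests may leave out a pairing.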
